A study of Saccharomyces cerevisiae with 4 samples.

Results

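Budding yeast (Saccharomyces cerevisiae) can make every amino acid, and 54 genes of these synthesis routes, other than those for arginine and the sulfur amino acids, are described here among 6212 rows named by open reading frame. They were chosen by name: 9 genes of lysine synthesis, 10 of leucine, isoleucine and valine, 6 of histidine, 13 of the aromatic amino acids, 5 of serine and glycine, 2 of threonine, 3 of proline, 4 of asparagine and aspartate, the glutamate synthase gene GLT1, and GCN4, which encodes the transcription factor of the general amino acid control. All 54 were matched to a row, and 51 could be tested in each comparison.

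Total RNA was measured on 4 spotted 2-colour arrays, each giving the ratio of 2 RNA samples. The strain is labelled DBY4741, and REG1 is replaced by KanMX in the mutant, called reg1. REG1 encodes a regulatory subunit of the protein phosphatase Glc7 that acts in glucose repression. A pair of arrays compared reg1 with wild type, neither of them treated, after growth in YPD (rich medium with glucose) at 28 °C. The other pair compared portions of reg1 cells, one exposed for 10 min to 16 mM KOH, which took the medium from about pH 5.5 to about pH 8, and one exposed equally long to 16 mM KCl. Wild-type cells under alkali were not analysed here, so nothing below says whether the response to alkali needs the mutation. The dyes were swapped between experiments 1 and 2 of each comparison. The labels do not say whether those experiments came from separate cultures, so a p-value reflects no more than the spread of these arrays, which may be technical.

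Amino acid synthesis runs along branched routes that start from intermediates of sugar breakdown and of the tricarboxylic acid cycle, and the end product usually inhibits the first enzyme of its own route. Above that stands the general control: when amino acids run short, the kinase Gcn2 lowers translation as a whole while translation of the GCN4 mRNA goes up, and Gcn4 then activates genes of nearly all routes together. Gcn4 is thus set largely by translation and protein turnover, which a ratio of mRNA does not measure. Single routes also have regulators of their own, such as Lys14 for lysine and Leu3 for leucine. YPD itself contains amino acids.

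REG1 (YDR028C), the deleted gene, had log2 ratios of -1.10 and -0.96 on the mutant arrays (mean -1.03 ± 0.10, SD, n = 2, adjusted p = 0.0320 with limma), which sets that direction as reg1 over wild type. Alkali ratios are read as KOH over KCl, which titles and channel order make likely. Between 4746 and 5190 rows were measured on an array, and the arrays of a comparison correlated across rows at r = 0.589 for the mutant and r = 0.954 for alkali. In the mutant columns the values of the 2794 rows from YKL011C on stand 2 rows below their names, as the pattern of missing values shows (r = 0.752 against 0.0393 without the shift), so they are given realigned. This touches the mutant values of 14 of the 54 genes, namely LYS9, LEU4, LEU9, ILV2, ILV5, ARO7, TRP3, PHA2, SER1, SHM2, PRO2, ASN1, AAT1 and AAT2. Outside the 54, the mutant values given below for ARG1, GDH1, HIS3 and PUT1 are realigned too. Ratios are relative to the RNA put on the array, so less mRNA of one gene and more of all others cannot be told apart.

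After 10 min of alkali, the amino acid synthesis genes of the reg1 cells moved in both directions, in 5 of the routes within the route itself. Of 51 tested genes 9 rose, 19 fell and 23 did not pass. Over all 4521 rows tested, 61.6% passed, 29.0% higher and 32.6% lower, against 54.9%, 17.6% and 37.3% of the amino acid genes, so the share that passed was near that of the whole table. With the arrays scaled to the same spread, 9 genes passed instead of 28, 6 higher and 3 lower. Fewer also passed with 1 alkali array left out. The spread in that fit comes only from the mutant arrays, so it cannot show whether the alkali arrays repeat each other. The median log2 ratio of the 51 genes was -0.36, and that of all rows -0.09. ARO1, HIS4, LEU4 and SER3 were more than 2-fold higher on both arrays, and ARO7, LYS4 and ARO9 more than 2-fold lower, 7 genes in all. Over all rows, 14.8% were 2-fold higher and 13.3% 2-fold lower on both arrays. Both arrays were above 0 for 17 of the amino acid genes and below 0 for 30, against 41.5% and 49.5% of all rows, and 33 genes had an unadjusted p under 0.05, against 66.0% of all rows. The 2 arrays gave close values, with a median gap of 0.17 between them and a gap above 0.5 for 1 gene, BAT1.

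**Figure D1:**
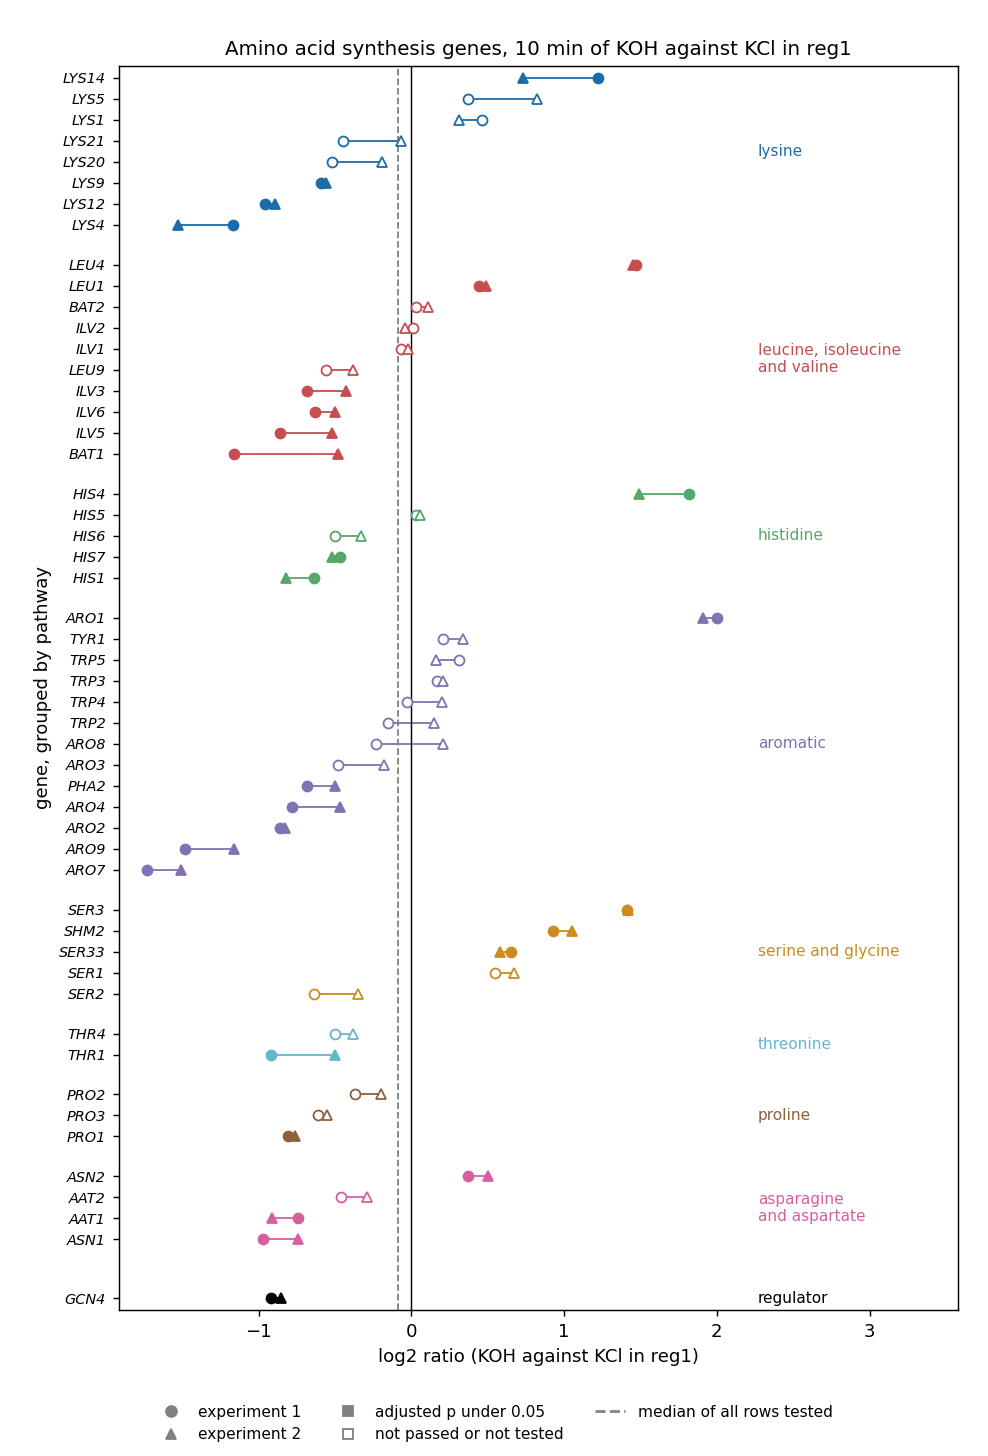
Log2 ratio of each of the 51 measured genes after 10 min of KOH against KCl in reg1 cells, in experiment 1 (circles) and experiment 2 (triangles), grouped by pathway, with filled symbols for genes with an adjusted p under 0.05 and a dashed line at the median of all rows tested (-0.09). ARO1, HIS4, LEU4 and SER3 lie furthest to the right, and ARO7, LYS4 and ARO9 furthest to the left.

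GCN4 (YEL009C) itself fell, with -0.92 and -0.85 on the 2 arrays, a mean of -0.89 ± 0.05 or 1.85-fold lower (adjusted p = 0.00741). Both arrays lie below 0 and close together. Among genes of the apparatus that sets Gcn4 translation, GCN1 rose, while GCN3, SUI2 and GCD2 fell and the others tested did not pass. GCN1, whose product activates the kinase Gcn2, had 2.38 and 2.36 and rose (adjusted p = 1.99e-04). GCN3, a subunit of the initiation factor eIF2B, had -1.74 and -1.47 and fell (adjusted p = 6.55e-04). In the list of 18 general control and pathway regulators 14 were tested after alkali, of which 3 rose, 4 fell and 7 did not pass. Of all rows 29.0% rose and 32.6% fell. In the mutant none of 15 passed, against 6.91% of all rows. LEU3, the activator of leucine genes, had -1.55 and -2.15 and fell (adjusted p = 0.00114).

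In the aromatic route 1 of 13 genes rose, 5 fell and 7 did not pass, where 29.0% of all rows rose and 32.6% fell. The enzymes of the common trunk did not move together. ARO1 (YDR127W), a multifunctional protein that carries out the middle steps towards chorismate, had 2.00 and 1.91, a mean of 1.96 ± 0.06 (SD, n = 2), or 3.88-fold higher (adjusted p = 3.41e-04). It was the highest of all 51 genes, and 5.66% of all tested rows lay above it. On either side of it in the route, genes fell. ARO4, one of the isozymes of the first step, had -0.78 and -0.47 (adjusted p = 0.0164), and ARO2, chorismate synthase, had -0.86 and -0.83 (adjusted p = 0.0165). The other first-step isozyme gene, ARO3, had -0.48 and -0.18 and did not pass.

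Beyond chorismate the route splits towards phenylalanine and tyrosine on one side and tryptophan on the other. ARO7 (YPR060C), chorismate mutase at the entry of the phenylalanine and tyrosine branch, had -1.73 and -1.51, a mean of -1.62 ± 0.16, or 3.07-fold lower (adjusted p = 0.00116). This was the lowest value of the 51 genes, and 5.84% of tested rows lay below it. PHA2, prephenate dehydratase of the phenylalanine arm, had -0.68 and -0.50 and fell (adjusted p = 0.0166), while TYR1, prephenate dehydrogenase of the tyrosine arm, had 0.21 and 0.34 and did not pass. None of the tryptophan genes passed. TRP2, TRP3, TRP4 and TRP5 had means of 0.00, 0.19, 0.09 and 0.24, with 95% intervals that together reach from -0.39 to 0.60. ARO9 (YHR137W), an aromatic aminotransferase known mainly for amino acid breakdown and for induction by aromatic amino acids, had -1.48 and -1.16 and fell to a mean of -1.32 ± 0.23, 2.50-fold lower (adjusted p = 0.00165).

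In the lysine route 1 of 8 tested genes rose, 3 fell and 4 did not pass, where 29.0% of all rows rose and 32.6% fell. The genes that fell encode enzymes of the middle and late steps. LYS4 (YDR234W), homoaconitase, had -1.17 and -1.53, a mean of -1.35 ± 0.25 or 2.55-fold lower (adjusted p = 0.00145). LYS12, homoisocitrate dehydrogenase, had -0.96 and -0.89 (adjusted p = 0.00536), and LYS9, saccharopine reductase, had -0.59 and -0.56 (adjusted p = 0.0457). With each array centred on its median, LYS9 did not pass. LYS14 (YDR034C), the transcriptional activator of the route, went the other way with 1.22 and 0.73, a mean of 0.98 ± 0.35 (adjusted p = 0.00533). The homocitrate synthase genes of the first step, LYS20 and LYS21, had means of -0.36 and -0.26, and LYS5, whose product activates the reductase Lys2, had 0.60, and none of these passed. LYS1, of the last step, had 0.39 and did not pass either, and LYS2 was measured on neither alkali array.

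Among the genes for leucine, isoleucine and valine, 2 of 10 rose, 4 fell and 4 did not pass. The shares of all rows were 29.0% higher and 32.6% lower. Genes of the leucine arm went different ways. LEU4 (YNL104C), the main α-isopropylmalate synthase and the entry to leucine, had 1.47 and 1.45, a mean of 1.46 ± 0.01 or 2.75-fold higher (adjusted p = 0.00155). The gene of the next enzyme, LEU1, had 0.44 and 0.49 and rose (adjusted p = 0.0417), a call that the fit with a replicate block does not make. LEU9, the isozyme gene of LEU4, had -0.56 and -0.38 and missed the threshold (adjusted p = 0.0502, but 0.0206 with the alkali arrays alone). In the trunk shared by valine and isoleucine, ILV6, the regulatory subunit of acetolactate synthase, fell to a mean of -0.57 ± 0.09, ILV5, the reductoisomerase, to -0.69 ± 0.24, and ILV3, the dehydratase, to -0.56 ± 0.18. Their adjusted p-values were 0.0414, 0.0121 and 0.0311. With each array centred on its median, ILV6 did not pass. ILV2, the catalytic subunit that pairs with Ilv6, had 0.01 and -0.04, and ILV1, threonine deaminase at the entry to isoleucine, had -0.07 and -0.02, and neither passed.

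Histidine synthesis had 1 of 5 tested genes up, 2 down and 2 not passing, where 29.0% of all rows rose and 32.6% fell. HIS4 (YCL030C), a multifunctional enzyme of early and final steps, had 1.82 and 1.49, a mean of 1.66 ± 0.23 or 3.15-fold higher (adjusted p = 8.76e-04). HIS1, the phosphoribosyltransferase of the first step, fell to -0.73 ± 0.13 (adjusted p = 0.00744), and HIS7, which closes the imidazole ring, to -0.50 ± 0.04 (adjusted p = 0.0409). The call of HIS7 was not made with each array centred on its median. HIS4 therefore stood apart from its own route, as ARO1 did. HIS6 and HIS5 had means of -0.42 and 0.05 and did not pass, and HIS2 was measured on none of the 4 arrays. HIS7 and ARO4 (YBR248C and YBR249C) are neighbouring genes and both fell.

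Serine and glycine synthesis was the route with most of its tested genes higher, 3 of 5, and none lower. Of all rows tested, 29.0% were higher and 32.6% lower. SER3 (YER081W), a phosphoglycerate dehydrogenase of the first step, had 1.41 and 1.42, a mean of 1.42 ± 0.01 or 2.67-fold higher (adjusted p = 7.20e-04). Its isozyme gene SER33 had 0.65 and 0.58 (adjusted p = 0.0127). SHM2 (YLR058C), the cytosolic enzyme that turns serine into glycine, had 0.93 and 1.05, a mean of 0.99 ± 0.08 (adjusted p = 0.00401). The aminotransferase gene SER1 had 0.55 and 0.67 and missed the threshold (adjusted p = 0.0670), and the phosphatase gene SER2 had -0.64 and -0.35 (adjusted p = 0.101). Both results rest on the spread shared with the mutant arrays. With the alkali arrays alone the adjusted p-values from limma were 0.00863 for SER1 and 0.0246 for SER2. The route's median was 0.62, against -0.09 for all rows.

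The remaining routes lay below 0 with 1 exception. THR1, homoserine kinase, fell to -0.71 ± 0.30 (adjusted p = 0.0288), and THR4, threonine synthase, had -0.44 and did not pass. PRO1, the kinase that commits glutamate to proline, fell to -0.79 ± 0.04 (adjusted p = 0.00575), and PRO2 and PRO3, the reductases after it, had -0.29 and -0.58 without passing. The exception was ASN2, one of a pair of asparagine synthetase genes, which had 0.37 and 0.50 and rose (adjusted p = 0.0409). It did not pass with a dye term or a replicate block. ASN1, its partner, had -0.97 and -0.74 and fell (adjusted p = 0.0417). AAT1, the mitochondrial aspartate aminotransferase, had -0.74 and -0.91 and fell (adjusted p = 0.0199), and the cytosolic one, AAT2, had -0.46 and -0.29 and did not pass. GLT1 was not measured on the alkali arrays.

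Several steps are encoded by a pair of isozyme genes, and in 3 of the 8 pairs the mean log2 ratios after alkali stood on opposite sides of 0. LEU4 exceeded LEU9 by 2.03 and 1.83 on the 2 arrays (mean difference of log2 ratios 1.93 ± 0.14). ASN1 lay below ASN2 by 1.34 and 1.24 (size 1.29 ± 0.07), and mitochondrial BAT1, which had -1.16 and -0.48 and fell (adjusted p = 0.0161), lay below cytosolic BAT2, at 0.03 and 0.11, by 1.19 and 0.59 (size 0.89 ± 0.42). For LEU4 against LEU9 and for ASN1 against ASN2 the difference was many times the SD between the arrays. In the other pairs both means had the same sign. ARO8, at -0.23 and 0.21, exceeded ARO9 by 1.31 ± 0.08, and SER3 exceeded SER33 by 0.80 ± 0.06. ARO3 and ARO4, AAT1 and AAT2, and LYS20 and LYS21 differed by 0.30 ± 0.01, 0.45 ± 0.24 and 0.10 ± 0.04 in size. The difference was also many times the SD for ARO8 and ARO9, SER3 and SER33, and ARO3 and ARO4. With 2 arrays that SD is itself imprecise. No test was made of these differences.

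**Figure D2:**
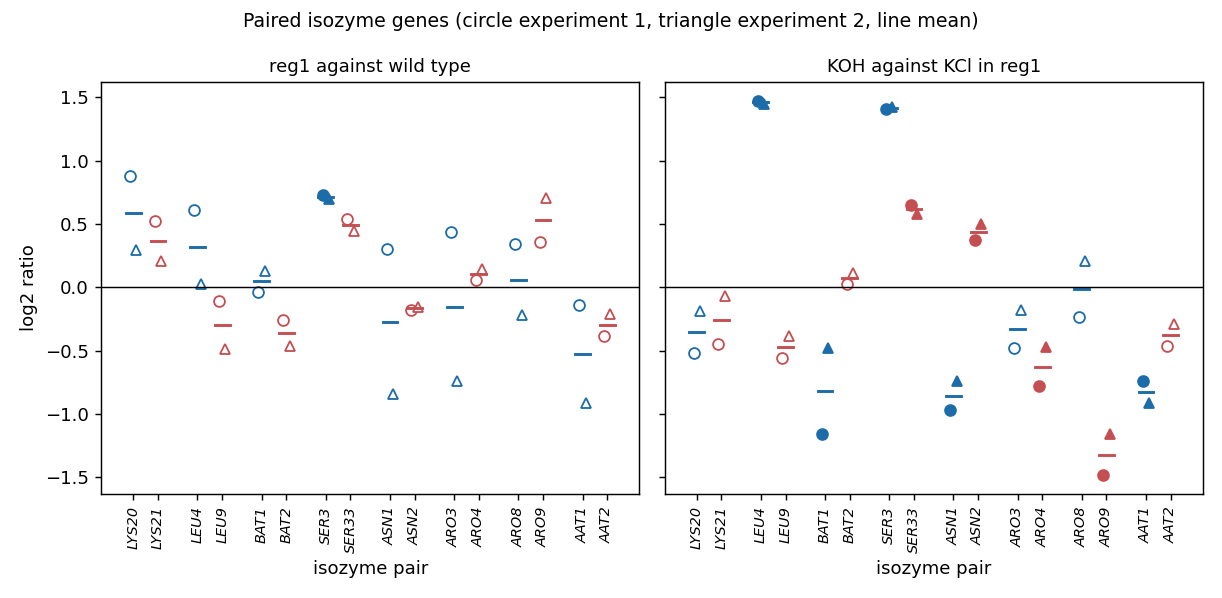
Log2 ratios of the 8 isozyme pairs in reg1 against wild type (left) and in KOH against KCl in reg1 (right), with a circle for experiment 1, a triangle for experiment 2, a line at the mean and filled symbols for genes with an adjusted p under 0.05. After alkali LEU4 stood at 1.46 and LEU9 at -0.47, and ASN1 at -0.86 and ASN2 at 0.44, while in the mutant the arrays of ASN1, ARO3 and AAT1 lay far apart.

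In the mutant without alkali, log2 ratios of amino acid synthesis genes were small, and 1 gene passed. REG1, though deleted, read only -1.03 here, so ratios on these arrays can be smaller than the difference in mRNA. SER3 had 0.73 and 0.70, a mean of 0.71 ± 0.02 (SD, n = 2) or 1.64-fold above wild type (adjusted p = 0.0432, limma). The other 50 of 51 tested genes did not pass, and none was 2-fold higher or lower on both arrays. Over all 4702 rows 6.91% passed, 5.08% higher and 1.83% lower, and 2.85% were 2-fold higher and 0.723% 2-fold lower on both arrays. At an unadjusted p under 0.05 there were 13 of the 51 genes, and 24.9% of all rows. The call of SER3 rests on the spread shared with the alkali arrays. With the mutant arrays alone its adjusted p was 0.160, and no amino acid gene passed. Leaving out either alkali array takes the spread from the mutant arrays alone and so repeats that fit, which adds no further evidence. With 1 mutant array left out, SER3 rested on a single value, 0.70 without experiment 1 and 0.73 without experiment 2.

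The mutant arrays differed more from each other than the alkali arrays did. Across these genes the gap between them had a median of 0.38 and exceeded 0.5 for 19 of 51. It was widest for ARO3, with 0.44 and -0.74, and for ASN1, with 0.30 and -0.84, neither of which has a settled direction. In all, 17 genes had both arrays above 0, 17 both below and 17 of opposite sign. The shares of all rows were 27.4% above and 34.5% below on both arrays. Absence of a call for a gene thus does not show that its level was unchanged.

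**Figure D3:**
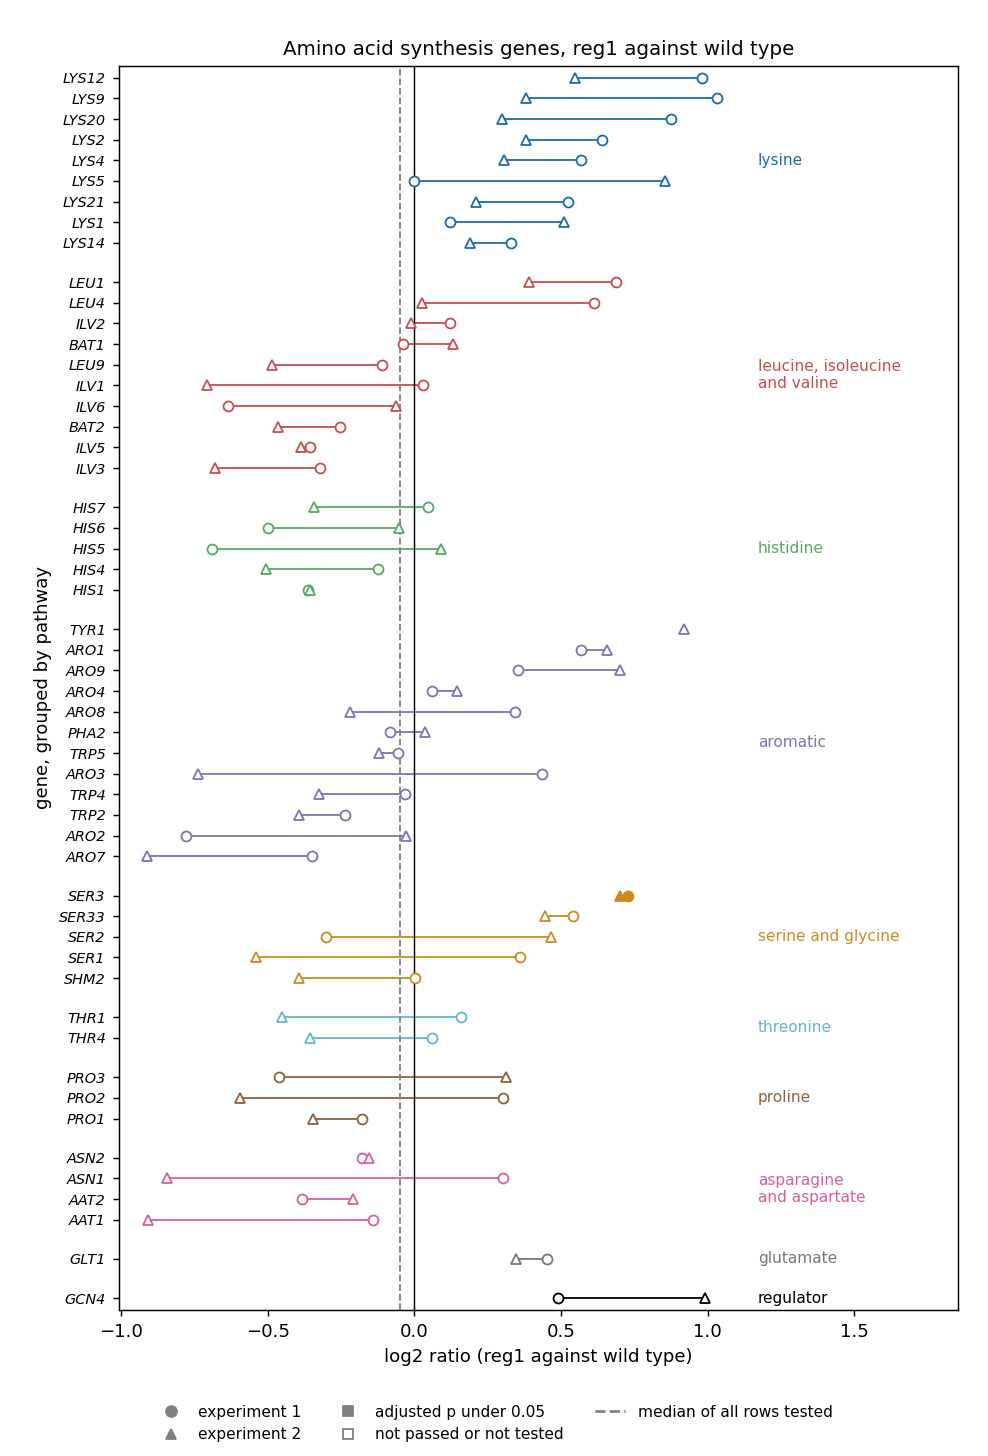
Log2 ratio of each measured gene in reg1 against wild type, in experiment 1 (circles) and experiment 2 (triangles), grouped by pathway, with filled symbols for an adjusted p under 0.05 and a dashed line at the median of all rows tested (-0.05). Lysine genes lie to the right of 0 on both arrays except for LYS5 in experiment 1, and SER3 is the filled gene.

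Lysine genes had a median of 0.44 in the mutant, against -0.05 for all rows. All 9 had a mean above 0, and 8 had both arrays above 0, but none passed singly. LYS12, with 0.98 and 0.55, was highest at a mean of 0.76 ± 0.31 and had an adjusted p of 0.0574. It passed in 7 of 12 other settings. Among the rest, the mutant arrays alone (adjusted p = 0.170, limma) and either alkali array left out are the same fit. LYS9 had 1.03 and 0.38 (mean 0.71 ± 0.46, adjusted p = 0.0975), LYS20 had 0.88 and 0.30 (mean 0.59 ± 0.41) and LYS2, the aminoadipate reductase gene, had 0.64 and 0.38 (mean 0.51 ± 0.19). Lower in the group were LYS4 (0.44 ± 0.19), LYS5 (0.43 ± 0.61), LYS21 (0.37 ± 0.22) and LYS1 (0.32 ± 0.27), and the activator gene LYS14 was lowest with 0.33 and 0.19 (mean 0.26 ± 0.10). The median was between 0.38 and 0.57 with 1 array left out, 0.49 after centring and 0.77 after scaling.

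GCN4 had 0.49 and 0.99 in the mutant, a mean of 0.74 ± 0.35 or 1.67-fold higher (adjusted p = 0.0686). It did not pass, and 6.47% of all rows lay above it. Among the 51 means LYS12, GCN4, SER3 and LYS9 were the highest 4, followed by ARO1, with 0.57 and 0.66 (mean 0.61 ± 0.06, adjusted p = 0.0667). GCN4 passed with a dye term, with a replicate block and over rows on all 4 arrays, and ARO1 with fewer rows, scaling or a dye term. With the mutant arrays alone, the same fit as without either alkali array, neither passed (adjusted p = 0.187 and 0.211, limma). GLT1 (YDL171C), which makes glutamate from glutamine and 2-oxoglutarate, had 0.45 and 0.35 (adjusted p = 0.209).

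Other routes leaned the other way in the mutant without any gene passing. All 5 tested histidine genes had means between -0.36 and -0.15, with HIS1 at -0.36 and -0.36, HIS4 at -0.12 and -0.51, and HIS5 at -0.69 and 0.09. The 4 asparagine and aspartate genes had means between -0.52 and -0.17, and the 3 proline genes between -0.26 and -0.07. THR1 and THR4 stood at -0.15 each, with arrays of opposite sign. Apart from AAT1 (-0.52), these means lie within the middle 80% of all rows, between -0.51 and 0.53. So do the lysine means other than those of LYS12, LYS9 and LYS20.

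Branched-chain and aromatic genes were mixed. LEU1 had 0.69 and 0.39 (mean 0.54 ± 0.21) and LEU4 0.61 and 0.03, while LEU9 had -0.11 and -0.49. The trunk genes ILV3 (-0.50 ± 0.25), ILV5 (-0.37 ± 0.02) and ILV6 (-0.35 ± 0.40) had means below 0, as had ILV1 (-0.34 ± 0.52) at the entry to isoleucine, and the trunk gene ILV2 (0.05 ± 0.09) was near it. None of these passed. BAT1 stood at 0.05 and BAT2 at -0.36. In the aromatic route ARO7 was lowest with -0.35 and -0.91 (mean -0.63 ± 0.40, adjusted p = 0.111), and ARO9 was second to ARO1 with 0.35 and 0.70 (mean 0.53 ± 0.25, adjusted p = 0.133). ARO2 had -0.78 and -0.03, ARO4 0.06 and 0.15, ARO8 0.34 and -0.22 and PHA2 -0.08 and 0.04. TRP2, TRP4 and TRP5 had means of -0.31, -0.18 and -0.09, TYR1 had 0.92 on the 1 array that measured it, and TRP3 had no realigned value.

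In serine synthesis SER3 was not followed by the later genes of the route. Next to SER3, its isozyme gene SER33 had 0.54 and 0.45 (mean 0.49 ± 0.07, adjusted p = 0.103). SER1 had 0.36 and -0.54, SER2 had -0.30 and 0.47 and SHM2 had 0.004 and -0.39, so for these 3 genes the arrays did not share a direction. As deposited, without the shift, SER1 would read -0.74 and -0.72 in the mutant and pass as lower, a value that stands 2 rows from its own name in the realigned reading.

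Set side by side, 49 genes were tested in both comparisons, which per the labels used cells under different treatments. Means were above 0 in both for 8 genes, below 0 in both for 20, above in the mutant and below after alkali for 12, and the reverse for 8, and TRP2 stood at 0 after alkali. Across these genes the means correlated at Pearson's r = 0.242 and Spearman's rho = 0.173, against 0.351 and 0.427 over the 4257 rows tested in both. These are descriptions, since the genes share arrays. SER3 was the gene that rose in both. Of the 5 highest means in the mutant, LYS12, GCN4 and LYS9 fell after alkali, whereas SER3 and ARO1 rose.

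**Figure D4:**
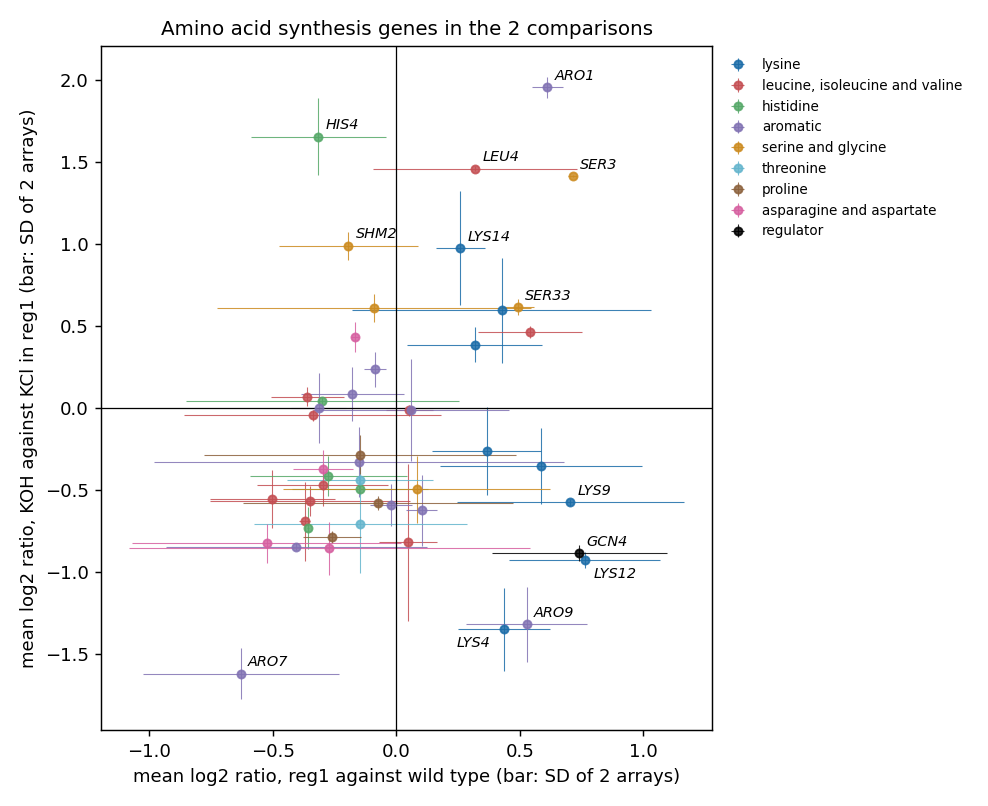
Mean log2 ratio of 49 genes in reg1 against wild type (x axis) and in KOH against KCl in reg1 (y axis), coloured by pathway, with bars for the SD of 2 arrays. LYS12, GCN4 and LYS9 lie at lower right, SER3 and ARO1 at upper right, and ARO7 at lower left.

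Arginine synthesis, a neighbouring route under the same general control, gave larger values in both comparisons. After alkali 8 of its 10 genes rose and none fell, with a median of 1.52, where 29.0% of all rows rose and 32.6% fell. ARG3, ornithine carbamoyltransferase, had 5.11 and 4.59 and rose (adjusted p = 1.88e-04). In the mutant, where 1.83% of all rows fell and 5.08% rose, 3 of 9 tested arginine genes fell and none rose, with ARG1 at -1.34 and -2.38, ARG5,6 at -0.88 and -1.32 and ARG4 at -0.90 and -1.22 (adjusted p = 0.0204, 0.0433 and 0.0286). No test compared this list with the 54 genes. Of the homoserine genes that feed threonine, HOM2 fell after alkali, with -0.61 and -0.40 (adjusted p = 0.0322), and HOM3 and HOM6 had 0.13 and -0.21 without passing, and none of the 3 passed in the mutant.

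Glutamate, which donates nitrogen to most of these routes, is also made by the NADP-dependent dehydrogenase Gdh1. GDH1 had 2.12 and 1.19 in the mutant and rose (mean 1.65 ± 0.66, adjusted p = 0.0182), and after alkali it had -0.86 and -0.74 and fell (adjusted p = 0.0311). GDH2, which breaks glutamate down, rose in both, with 1.97 and 2.68 in the mutant (adjusted p = 0.00456) and 2.67 and 2.40 after alkali (adjusted p = 4.74e-04). ALT1, the alanine aminotransferase, had 1.69 and 1.94 after alkali (adjusted p = 0.00186). In this list of glutamate, glutamine and alanine genes 2 of 6 rose in the mutant and none fell, where 5.08% of all rows rose and 1.83% fell. After alkali 2 of the 6 rose and 2 fell, near the shares of all rows, 29.0% and 32.6%. The marker genes HIS3 and LEU2, which are not among the 54, had means of -1.05 and 1.08 after alkali (adjusted p = 0.00223 and 0.00453), while TRP1 had 0.14 and did not pass. In the mutant LEU2 was not measured, and HIS3 had -0.49 and TRP1 0.06 without passing. Whether the strain carries intact copies of these marker genes was not checked, so their values may not reflect their own mRNA.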

How the data were processed

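The authors deposited 1 table with a log2 ratio per row and array (the base is not stated and was taken as 2, since the highest value, 9.1, would be an 8955-fold ratio in natural logs). Per the labels, spots under 120 µm across or under 100 units in both dyes were left out. No source used here names the scanner, the background correction or the normalization, and the signal over background of a spot is unknown. Column medians were -0.028 and -0.068 (mutant) and -0.12 and -0.04 (alkali). Values were not centred.

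Rows were named through a RefSeq table of assembly R64 (5662 of 6212 matched). The register of the mutant columns was checked from missing values. Rows from YKL011C on were read 2 rows down, and YAL067C to YBR047W, with 20 rows on each side of every change, were left out (279 rows, none of the 54 genes, but GDH3 and UGA2 of the other lists).

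Means were tested against 0 with limma 3.58.1 in R 4.3.3 (lmFit and eBayes, 4 arrays in 1 fit, prior degrees of freedom 3.69, Benjamini-Hochberg over all rows on both arrays of a comparison, called under 0.05). The code was tested on simulated data. Every one of the 54 genes could be named. Genes of other lists were named where called and among the 3 largest means of the list in a comparison. Those of the lists of 3 homoserine and 3 marker genes were all named, which, like naming GDH3, UGA2, SHM1, GLY1, SUI2 and GCD2, goes beyond that rule. The members and lists were chosen with earlier results of these data known. Alternatives were the deposited register, fewer rows, centring, scaling, a dye term, a replicate block, the arrays of a comparison alone, 1 array left out, and a 2-fold rule.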

Additional observations from a re-analysis of the deposited data

How the results depend on the processing

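In the mutant 1 amino acid gene was called (1 higher, 0 lower). The count was 3 as deposited (2 higher, 1 lower), 3 with the 38 genes whose names the register check bears out (all 3 higher), 2 after centring (2 higher), 5 after scaling (5 higher), 7 with a dye term (6 higher, 1 lower), 4 over rows on all 4 arrays (4 higher), and 0 with the mutant arrays alone or by the 2-fold rule. Leaving out 1 array gave 0 to 1. After alkali the count of 28 (9 higher, 19 lower) was 9 after scaling (6 higher, 3 lower) and 7 by the 2-fold rule (4 higher, 3 lower). Leaving out 1 array gave 7 to 37, with 4 to 12 higher and 3 to 25 lower, and the deposited register, the rows with names borne out, centring, the alkali arrays alone, the dye term and the rows on all 4 arrays gave 26 to 37. ARO1, HIS4, LEU4, SER3, ARO7, ARO9 and LYS4 passed under every alternative fit with both alkali arrays, and no called gene changed sign in any alternative. These fits are not all separate checks. Leaving out 1 mutant array repeats the fit of the alkali arrays alone. A dye term, a replicate block or fewer rows leave each mean, and so its sign, as it was. The aromatic median after alkali, -0.01, was 0.07 after centring, -0.33 over rows on all 4 arrays and -0.23 to 0.15 with 1 array left out. The serine and glycine median in the mutant, 0.08, was 0.49 over rows with names borne out and up to 0.45 with 1 array left out. The replicate block gave 3 calls in the mutant (3 higher) and 30 after alkali (9 higher, 21 lower). Arrays with the same number did not deviate together (r = -0.0936 over 4257 rows). Their dyes were assigned in opposite ways in the 2 comparisons, so this value cannot show whether the numbers pair them. Over all rows, calls in the mutant were 325, but 541 after scaling, 790 with a dye term and 153 with the mutant arrays alone or with 1 alkali array left out, and 229 and 200 without mutant experiment 1 or 2. After alkali they were 2784, but 1240 after scaling and 1214 and 1448 without alkali experiment 1 or 2. With 1 array of a comparison left out, the spread in the fit comes only from the arrays of the other comparison. Over all rows the median SD between arrays was 0.23 in the mutant and 0.13 after alkali. How much of the shifts this accounts for was not tested. With 2 arrays a comparison, their number limits the precision.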

Other observations

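PUT1, proline oxidase, had 3.66 and 3.44 after alkali and rose (mean 3.55 ± 0.16, adjusted p = 1.45e-04, limma), and in the mutant it had -1.22 and -1.06 and fell (mean -1.14 ± 0.11, adjusted p = 0.0130). PUT2, of the next step, had 0.62 and 0.79 after alkali and rose (adjusted p = 0.0253). GAD1, glutamate decarboxylase, had 3.10 and 2.69 (adjusted p = 2.12e-04). CHA1, the serine and threonine deaminase gene, had -1.08 and -1.30 in the mutant and fell (adjusted p = 0.0320), and after alkali it had 0.96 and 0.24 and missed the threshold (adjusted p = 0.0505). Of 7 amino acid breakdown genes tested after alkali 3 rose and none fell, where 29.0% of all rows rose and 32.6% fell. Of 8 in the mutant 2 fell and none rose, where 1.83% of all rows fell and 5.08% rose.

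The subunits of the glycine decarboxylase complex did not move together after alkali. GCV2 had 2.79 and 2.94 and rose (adjusted p = 1.78e-04), GCV1 had 0.50 and 0.76 and rose (adjusted p = 0.0154), and GCV3 had -0.76 and -0.72 and fell (adjusted p = 0.0181). Of the 5 genes in this list 2 rose and 2 fell (GCV3 and SHM1) after alkali, where 29.0% of all rows rose and 32.6% fell. The median of the list was -0.46. In the mutant none of the 5 passed.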
